A study of Mus musculus with 6 samples.

Results

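RNA of CD4+ T cells was examined for 41 genes whose proteins build the early part of the spliceosome, out of 56246 genes in the expression table. The members were chosen by name: 3 proteins of the U1 snRNP, 4 U1-associated proteins, 9 subunits of the SF3A and SF3B complexes, 4 proteins of the U2 snRNP core and U2AF, 7 Sm proteins, 7 LSm proteins and 7 further U2-related factors. All 41 were found by symbol and all 41 passed the minimum of a mean normalized count of 100 in at least 1 condition, so that none was lost to a filter. The cells were sorted from spleen and peripheral lymph nodes of mice, 3 per condition by the methods of the study, in which Cd2bp2, encoding the U5 snRNP protein CD2BP2/U5-52K, can be deleted between loxP sites (f) by Cre under the CD4 promoter. The cKO group held 3 libraries of the genotype U5-52Kf/f CD4-Cretg. The Control group also held 3 libraries, of which CTRL_1.2 and CTRL_3.4 were U5-52Kwt/f CD4-Cretg and CTRL_5.6 was U5-52Kf/f CD4-Cre-, so that floxed alleles occurred in every library and Cre in all but 1. CD4-Cre acts from the double positive stage of thymocytes onwards, and the sorted cells are those that remained in the periphery after deletion.

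In textbook terms, the U1 snRNP finds the 5′ splice site and the U2 snRNP, guided by U2AF, pairs with the branch point before the U4/U6.U5 tri-snRNP joins. A ring of 7 Sm proteins is loaded on the U1, U2, U4 and U5 snRNAs in the cytoplasm, and a related ring of the LSm2 to LSm8 proteins holds the end of U6. CD2BP2/U5-52K belongs to the U5 snRNP and is not part of the complexes studied here except that U5 shares the Sm ring.

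Reads in genes ranged from 56995121 to 75606222 per library in Control and from 69981159 to 82286366 in cKO. Cd2bp2 had normalized counts of 2624, 2602 and 2612 in Control and 884, 874 and 738 in cKO, a log2 fold change of −1.65 ± 0.11 (SE) with an adjusted p of 0.00137 in limma, so that every library went with its label. Cd4 was high in all libraries (54431 to 62831) and Cd8a was low (9.70 to 107). Cd8b1 was higher than Cd8a, with 700, 928 and 1464 in Control, the last in CTRL_5.6, and 886, 596 and 621 in cKO. CTRL_5.6 and KO_7.8 stood apart from the other libraries of their conditions. CTRL_5.6 was also the only library without Cre, so that within Control its genotype and its other differences cannot be told apart. The summed normalized count of the erythroid markers was 4063 in CTRL_5.6 and 3076 in KO_7.8 but 171 to 484 in the other 4 libraries. This sum was carried by the globin genes Hba-a1, Hba-a2 and Hbb-bt. Alas2 did not follow it, with 31.2, 22.5 and 31.5 in Control and 33.6, 22.7 and 18.2 in cKO. The myeloid markers summed to 73065 in KO_7.8 and to between 28460 and 37705 elsewhere, and the cell cycle genes to 105047 in KO_7.8 and to between 67304 and 73219 elsewhere. Ctss alone had 37799 in KO_7.8. S100a8 (11.6) and S100a9 (7.36) were lower in KO_7.8 than in the other cKO libraries, while all other listed myeloid markers were highest in it. The B cell markers ranged from 9044 to 12012 in Control and from 4301 to 8060 in cKO. The part of these other cells or of RNA quality in the results below was not tested. Expression values without CTRL_5.6 and KO_7.8 are given below for some of the members in which these libraries were the highest or the lowest of their conditions.

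The exons shown here are from events described below, chosen because each carries a coding choice that a reader can follow in its letters. In the first pair of lines the exon is in capitals and 20 bases of the neighbouring exons are in lower case; the reading is 5′ to 3′ on the transcribed strand, from the GENCODE M21 transcripts (GRCm38). They are the 80-base exon of Snrpa1 (chr7:66070119-66070198, plus strand, coding) and the 71-base exon of Luc7l (chr17:26253974-26254044, plus strand, in a transcript of the nonsense-mediated decay class).

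Snrpa1, 80 bases: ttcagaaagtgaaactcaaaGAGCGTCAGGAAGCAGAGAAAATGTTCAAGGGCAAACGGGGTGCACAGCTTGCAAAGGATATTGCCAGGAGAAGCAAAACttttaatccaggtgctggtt
Luc7l, 71 bases: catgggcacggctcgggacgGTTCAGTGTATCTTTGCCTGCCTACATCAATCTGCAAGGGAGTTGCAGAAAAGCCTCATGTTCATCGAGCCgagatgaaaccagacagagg

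The exons of Snrpa1 and Luc7l leave a remainder of 2 bases after division by 3. A pair of further exons brings a stop codon with it and is printed from 20 bases before the exon up to that codon, with the stop in capitals. These are the 56-base exon of Sf3b1 (chr1:55014869-55014924, minus strand) and the 164-base exon of Dnajc8 (chr4:132535983-132536146, plus strand), and GENCODE places both transcripts in the nonsense-mediated decay class.

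Sf3b1, stop at base 18 of the exon: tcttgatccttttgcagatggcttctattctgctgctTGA
Dnajc8, stop at base 31 of the exon: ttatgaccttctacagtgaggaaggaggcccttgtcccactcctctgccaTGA

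U2af1 has a pair of coding exons of 67 bases each that replace one another. They are shown whole, with the 23 bases that differ in capitals: the exon counted by the event described below (chr17:31652502-31652568, minus strand) and its partner (chr17:31651646-31651712, minus strand).

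U2af1, counted exon: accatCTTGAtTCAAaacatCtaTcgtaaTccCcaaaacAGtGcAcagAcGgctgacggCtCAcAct
U2af1, partner exon: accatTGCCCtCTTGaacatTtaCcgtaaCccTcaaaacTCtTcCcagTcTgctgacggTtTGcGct

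The first question was whether the messages of these early factors changed in level when Cd2bp2 was deleted. None of the 41 members was called at an adjusted p under 0.05 with an absolute log2 fold change above 1, where 0.564% of the 11001 genes tested were called. None passed the adjusted p alone, where 0.973% of all genes tested did. At an unadjusted p under 0.05 there were 5 members, 4 higher and 1 lower in cKO, against 16.7% of all genes tested. The edgeR test on the whole reads gave 0 members, and DESeq2 gave 3 (Sf3b3, Sf3b5 and Puf60), where DESeq2 passed 8.42% of the genes with an adjusted p. In all 41 members the 95% interval of the log2 fold change lay between −1 and 1, so that a change of 2-fold or more was outside the interval of each. Such an interval was also found for 9034 of the 11001 genes tested. The median log2 fold change of the members was 0.14 and that of all genes tested 0.01. Values above 0 were found for 33 of the 41 members and for 5695 of the 11001 genes tested. In bulk RNA, fewer cells of a type and less RNA per cell cannot be told apart.

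**Figure D1:**
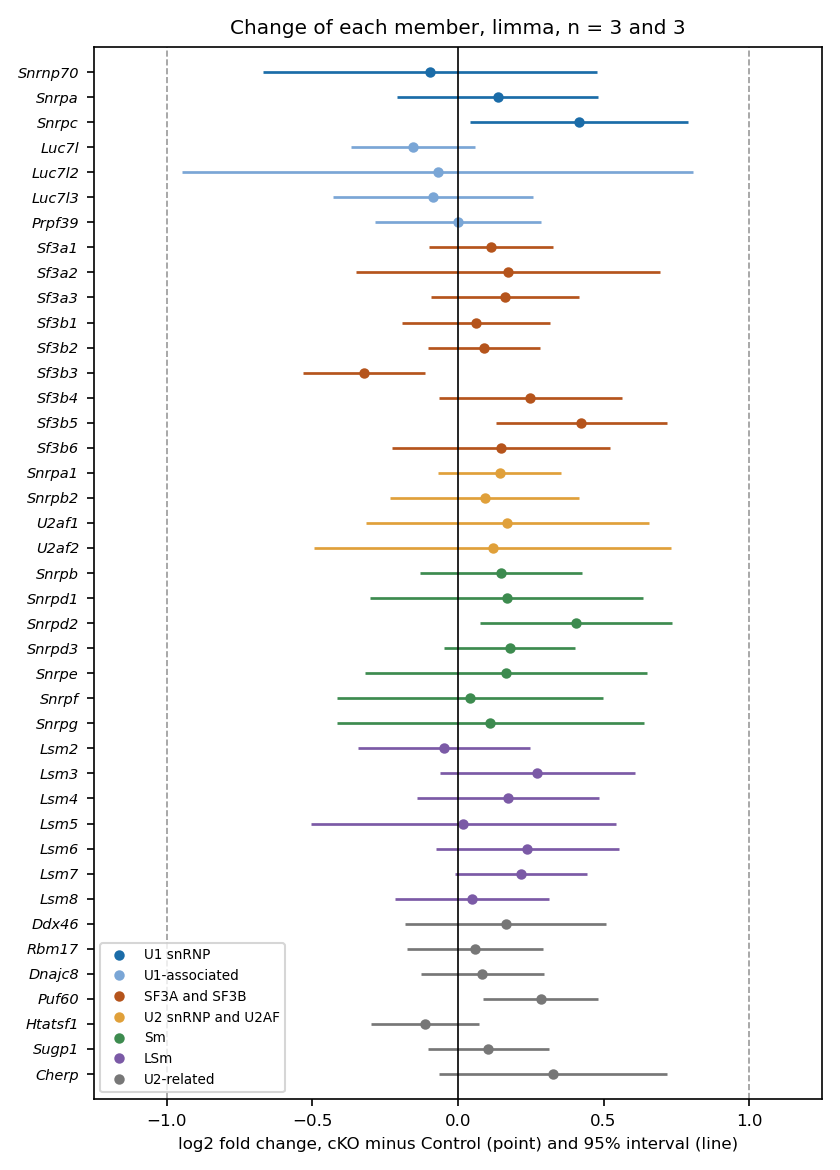
Log2 fold change of each member (cKO minus Control, limma on log2 normalized count + 1, n = 3 and 3); points are estimates, lines are 95% intervals, colours are the roles and dashed lines mark −1 and 1. All 41 intervals lie between the dashed lines, and those of Sf3b3 below 0 and of Snrpc, Sf3b5, Snrpd2 and Puf60 above 0 do not reach 0 before adjustment.

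The libraries of a condition also differed among themselves. The median log2 distance of the members from the Control mean was −0.07 in CTRL_1.2, −0.03 in CTRL_3.4 and 0.13 in CTRL_5.6, while it was highest in KO_7.8, at 0.25, and lower in KO_11.12 (0.12) and in KO_9.10 (0.04). CTRL_5.6 thus lay above 2 of the 3 cKO libraries. In 26 of 41 members (63.4%) CTRL_5.6 was above both other Control libraries and KO_7.8 above both other cKO libraries, and in 8 (19.5%) both were below. Among all genes tested these shares were 30.9% and 28.3%. All 7 LSm genes and 6 of 7 Sm genes were in the first class, whereas Snrnp70, Luc7l2, Luc7l3, Sf3a2, Sf3b3, Sf3b4, U2af2 and Cherp were in the second. Globin gene levels were high in the same pair of libraries (above), and their part was not tested.

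**Figure D2:**
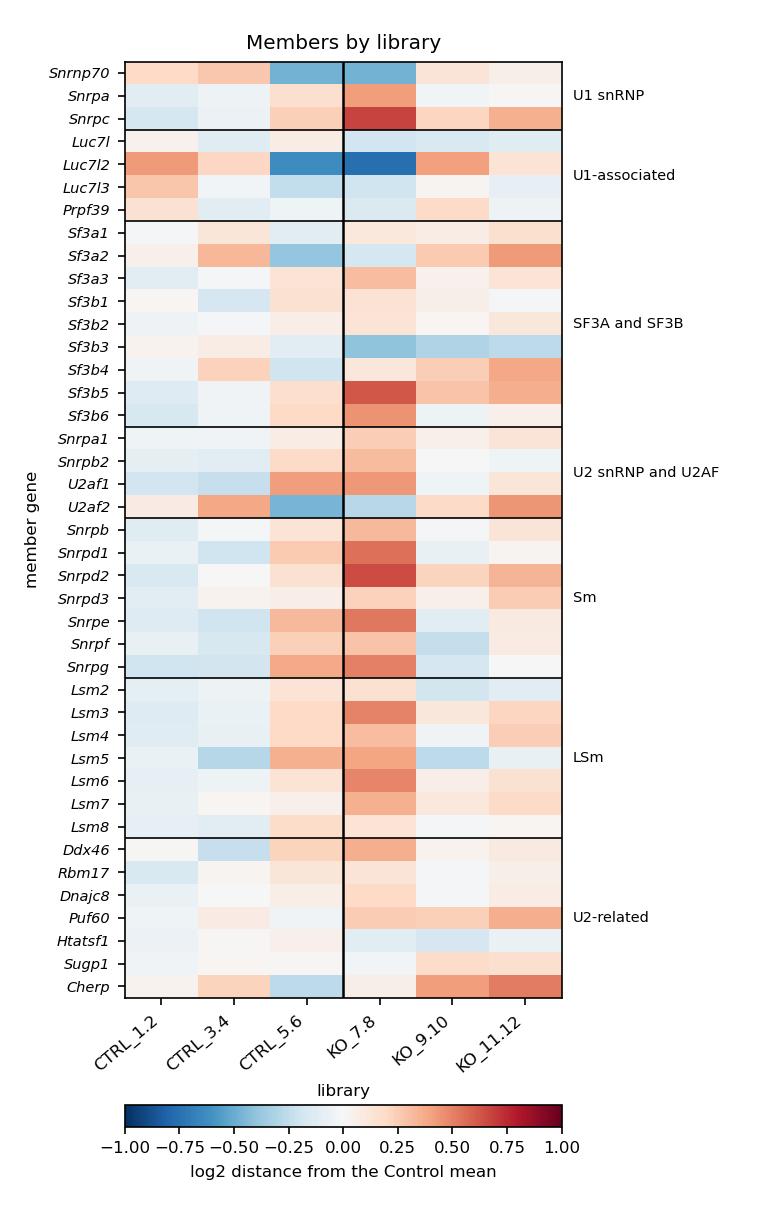
Log2 distance of each member (rows, grouped by role) from the mean of the 3 Control libraries in each library (columns); red is above and blue below that mean, and the black line separates Control from cKO. The Sm and LSm rows are red in CTRL_5.6 and KO_7.8 together, Luc7l2 and Snrnp70 are blue in both, and Sf3b3 is blue and Puf60 red in all 3 cKO libraries.

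With both of these libraries left out, a choice made after the values were seen, limma passed 5 members at an adjusted p under 0.05, where 13.3% of all genes tested passed. They were Snrpc (0.40 on the log2 scale, adjusted p = 0.0138), Sf3b5 (0.41, adjusted p = 0.0105), Snrpd2 (0.36, adjusted p = 0.0247), Cherp (0.33, adjusted p = 0.0404) and Sf3b3 (−0.34, adjusted p = 0.0321). None had an absolute log2 fold change above 1. The median log2 fold change of the members was then 0.11, with 34 of 41 values above 0, and that of all genes tested 0.01. Among the members described below as highest or lowest in these libraries, the log2 fold change without them was 0.25 ± 0.09 (SE) for U2af1, 0.07 ± 0.09 for Snrpa, 0.13 ± 0.10 for Snrpb, −0.14 ± 0.09 for Snrnp70, −0.04 ± 0.11 for Luc7l2 and 0.08 ± 0.12 for U2af2. None of these 6 passed the adjusted test.

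No overlap between the conditions was seen for 6 members. Sf3b5, Snrpd2, Lsm7 and Puf60 had all cKO libraries above all Control libraries, where 12.6% of all genes tested did. Sf3b3 and Htatsf1 had all cKO libraries below all Control libraries, where 11.5% of all genes tested did. Neither share of the members was above that of all genes.

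Among the U1 snRNP proteins, Snrpc encodes the C protein of U1, which touches the duplex of U1 snRNA with the 5′ splice site. Its normalized counts were 3736, 4042 and 4966 in Control and 6737, 4893 and 5405 in cKO, and KO_9.10 lay below CTRL_5.6, so that the groups overlapped. The log2 fold change was 0.42 ± 0.16 (SE), with a limma adjusted p of 0.257. Snrpa, encoding the A protein of U1, which binds a stem loop of U1 snRNA, had 3615, 3745 and 4339 in Control and 5202, 3819 and 3929 in cKO. Only KO_7.8 was above all Control libraries, and the log2 fold change was 0.14 ± 0.15 (adjusted p = 0.707). Snrnp70, encoding U1-70K, had 12014, 12602 and 7513 in Control and 7525, 11386 and 10893 in cKO. Its lowest values came from 1 library of each condition, CTRL_5.6 and KO_7.8, and the other 4 lay within 10893 to 12602.

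The U1-associated members are the 3 LUC7-like proteins, which act in the choice of 5′ splice sites, and PRPF39. All 4 had log2 fold changes at or below 0, from −0.15 to −0.00058. Luc7l had normalized counts of 4890, 4355 and 5000 in Control and 4149, 4274 and 4359 in cKO, with a log2 fold change of −0.15 ± 0.09 and an adjusted p of 0.444 in limma. The highest cKO library was only just above the lowest Control library. Luc7l3 had 7008, 5670 and 4895 in Control and 5034, 5915 and 5466 in cKO, with all cKO libraries inside the Control range. Luc7l2 spread the most of all members, with 4127, 3543 and 1983 in Control and 1822, 4078 and 3375 in cKO. Its low values were again CTRL_5.6 and KO_7.8, and its 95% interval ran from −0.95 to 0.81 on the log2 scale.

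SF3A and SF3B hold the U2 snRNP on the branch point. In this group 8 of 9 values were above 0, with a median of 0.15, and Sf3b3 was the exception. Sf3b3 (chr8:110810239-110846787, minus strand) encodes the large scaffold subunit of SF3B. It had normalized counts of 23700, 24387 and 21399 in Control and 17460, 18800 and 19303 in cKO. Every cKO library was below every Control library, and the log2 fold change of −0.32 ± 0.09 was the lowest of all members. The adjusted p was 0.158 in limma and 0.0103 in DESeq2. Sf3b5 (chr10:13005343-13009183, plus strand), a single-exon gene for a small subunit of SF3B, had 5424, 5797 and 6651 in Control and 9133, 7231 and 7646 in cKO. Its groups did not overlap, and its log2 fold change of 0.42 ± 0.12 was the highest of all members. Here the adjusted p was 0.172 in limma and 0.0418 in DESeq2. Values within SF3B thus ran from −0.32 to 0.42, and neither end passed the adjusted test in limma. Sf3b1, which encodes the subunit that encloses the branch point and is mutated in several blood cancers, had 45773, 40113 and 50099 in Control and 49786, 47033 and 44810 in cKO, all cKO values inside the Control range.

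The U2 core and U2AF members had log2 fold changes of 0.09 to 0.17. Snrpa1, encoding the A′ protein of the U2 snRNP, had normalized counts of 5007, 5045 and 5430 in Control and 6129, 5345 and 5637 in cKO (adjusted p = 0.483, limma). KO_9.10 was below CTRL_5.6, and the log2 fold change was 0.14 ± 0.09. U2af1, whose product reads the AG of the 3′ splice site, had 4408, 4284 and 6717 in Control and 6788, 4879 and 5453 in cKO (adjusted p = 0.748). The highest 2 libraries were CTRL_5.6 and KO_7.8, and the log2 fold change was 0.17 ± 0.21. Of the 50-base words of the U2af1 transcript, 59.4% also occur in transcripts of other genes, so its level is uncertain. Such shared words also made up 49.3% in Sf3b4, 29.9% in U2af2, 22.5% in Snrpa, 19.6% in Snrpc and 10.1% in Luc7l2, whose levels carry the same limit. U2af2, whose product binds the polypyrimidine tract, had 10834, 13441 and 7418 in Control and 8478, 11708 and 13940 in cKO, and its lowest libraries were CTRL_5.6 and KO_7.8.

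All 7 Sm genes had values above 0, with a median log2 fold change of 0.16, and none passed the adjusted test. Snrpd2 (chr7:19149722-19153542, plus strand) had normalized counts of 4261, 4701 and 5264 in Control and 7435, 5509 and 5982 in cKO. Its groups did not overlap, with a log2 fold change of 0.41 ± 0.14 and a limma adjusted p of 0.226. Snrpd3 had 8683, 9572 and 9770 in Control and 10918, 9663 and 11140 in cKO, and KO_9.10 fell between 2 Control libraries (log2 fold change 0.18 ± 0.09, adjusted p = 0.403). Snrpb, encoding the SmB and SmB′ proteins, had 19119, 20467 and 22816 in Control and 26023, 20567 and 22653 in cKO. Only KO_7.8 was above the Control range, and the log2 fold change was 0.15 ± 0.12 (adjusted p = 0.589). Snrpf had 437, 411 and 544 in Control and 560, 391 and 487 in cKO, with a log2 fold change of 0.04 ± 0.19 (adjusted p = 0.947). The direction of Snrpf turned under quantile normalization (−0.03) and without some libraries, and its gene count missed reads (below).

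Of the 7 LSm genes 6 had values above 0, with a median log2 fold change of 0.17. Lsm3 had normalized counts of 1929, 2011 and 2413 in Control and 2965, 2274 and 2449 in cKO, with a log2 fold change of 0.27 ± 0.14 (adjusted p = 0.388). KO_9.10 was below CTRL_5.6. Lsm7 had 6275, 6714 and 6856 in Control and 8457, 7110 and 7546 in cKO, without overlap, and a log2 fold change of 0.22 ± 0.10 (adjusted p = 0.318). Lsm4 had 11772, 12178 and 14742 in Control and 15928, 12499 and 15207 in cKO, and Lsm8 had 2489, 2445 and 2987 in Control and 2896, 2600 and 2668 in cKO. In Lsm8 all cKO libraries were inside the Control range.

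Although the Sm proteins enter the ring in equal numbers, their messages differed widely in level. On the scale of normalized reads per kilobase of merged exons, Control means ± SD (n = 3) were 10527 ± 947 for Snrpb, 3432 ± 706 for Snrpe, 2714 ± 168 for Snrpd3, 2611 ± 624 for Snrpg, 1811 ± 192 for Snrpd2, 992 ± 168 for Snrpd1 and 539 ± 81.5 for Snrpf. The library values of Snrpg overlapped those of Snrpe and Snrpd3, while Snrpb was above and Snrpf below all other Sm genes in every library. The level of Snrpf is uncertain, because its gene count was only 391 to 560 per library. In the splicing data, 1 exon of Snrpf of 126 bases had a mean of 3014 reads per library. The gene count thus missed reads of Snrpf, and its last place may not hold. Lsm4 led the LSm genes with 12425 ± 1552, followed by Lsm7 with 4132 ± 189, Lsm5 with 3016 ± 700, Lsm6 with 1118 ± 91.7, Lsm3 with 769 ± 94.2, Lsm2 with 656 ± 55.5 and Lsm8 with 629 ± 71.7. The library values of Lsm3, Lsm2 and Lsm8 overlapped. In cKO the level was 11681 ± 1393 for Snrpb, 14012 ± 1742 for Lsm4 and 557 ± 98.3 for Snrpf. Merged exons include retained introns of rare transcripts. Divided by the longest coding transcript instead, Snrpb (17916) came before Lsm4 (13943) and Lsm8 (3272) rose from rank 13 to rank 8 of 14. Snrpf (539) stayed last, but by the same incomplete gene count. Of the 50-base words of the transcript, 44.0% in Lsm5, 21.3% in Snrpf, 20.8% in Snrpe, 20% in Lsm7, 18.2% in Lsm3, 18.1% in Snrpg, 13.8% in Snrpd1 and 11.7% in Snrpd2 are shared with other genes, and reads that map to several genes may be missing from these levels.

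**Figure D3:**
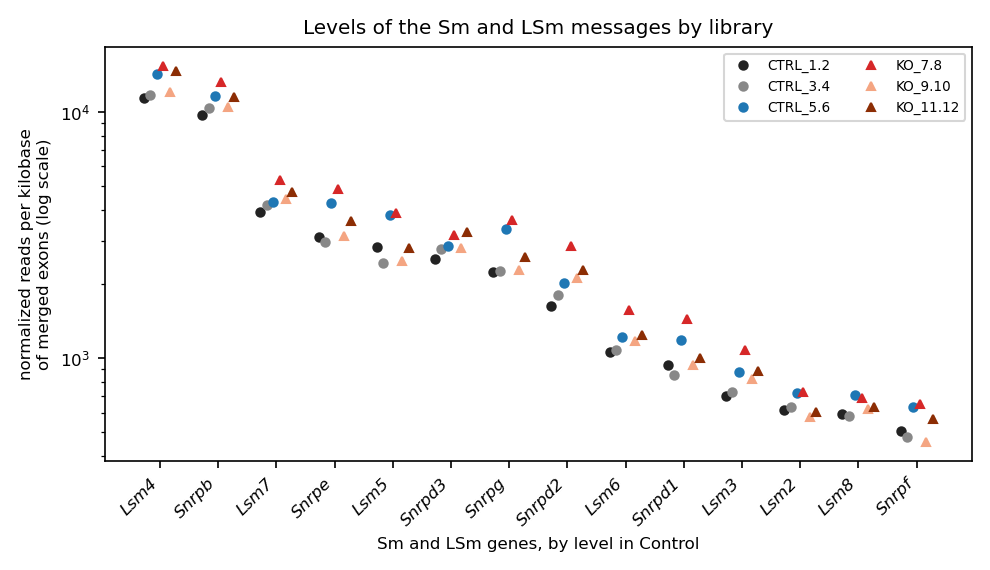
Normalized reads per kilobase of merged exons (log axis) of the 7 Sm and 7 LSm genes in each library; circles are Control, triangles are cKO, and genes are ordered by their Control mean. Lsm4 and Snrpb are at the top and Snrpf at the bottom, and CTRL_5.6 (blue) and KO_7.8 (red) are each the highest library of their condition in every gene except Snrpd3. The gene count of Snrpf missed reads, so its place is uncertain.

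The U2-related factors include helicases, G-patch proteins and RNA-binding proteins that act around the U2 snRNP. Puf60 (chr15:76070182-76080924, minus strand), whose product binds uridine-rich tracts beside U2AF, had normalized counts of 31865, 34760 and 31969 in Control and 39243, 38666 and 42130 in cKO. All cKO libraries were above all Control libraries, and KO_7.8 lay between the other cKO libraries. The log2 fold change was 0.28 ± 0.08, with an adjusted p of 0.173 in limma and 0.0073 in DESeq2. Cherp, encoding a U2-associated SR-related protein, had 10725, 12273 and 8770 in Control and 10901, 13987 and 14928 in cKO, a log2 fold change of 0.33 ± 0.17 (adjusted p = 0.381). Its 2 highest libraries were KO_9.10 and KO_11.12, and CTRL_5.6 was lowest. The helicase gene Ddx46, Rbm17, Dnajc8, Htatsf1 and Sugp1 had log2 fold changes between −0.11 and 0.16.

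Neighbouring gene lists give the scale of these differences. These lists were chosen with earlier results of these data known. Of 16 proteins of U4/U6 and U5, 3 rose past the call rule and none fell past it, where 0.564% of all genes tested were called. Their median log2 fold change was 0.23. Prpf3, a U4/U6 protein, had normalized counts of 2862, 3136 and 3378 in Control and 10327, 9413 and 9770 in cKO (log2 fold change 1.66 ± 0.09, adjusted p = 0.00137). Prpf8, the central U5 protein, rose by 1.12 ± 0.14 on the log2 scale (adjusted p = 0.022) and the helicase gene Snrnp200 by 1.27 ± 0.12 (adjusted p = 0.00575). Among 20 tested partners of the early spliceosome, such as Sf1 and Zrsr2, none passed in limma. Their median was −0.02, with 12 values below 0. The largest rise was in Smndc1, with 3220, 2806 and 4463 in Control and 8850, 5923 and 6072 in cKO, without overlap. Its log2 fold change was 0.99 ± 0.22, with an adjusted p of 0.107 in limma and 0.00178 in DESeq2. Among 8 other LSm proteins none passed in limma either, with a median of 0.04. DESeq2 passed 1 early partner (Smndc1), 1 other LSm gene (Lsm14b, lower in cKO, adjusted p = 0.0177) and 6 genes of U4/U6 and U5. Of these 6, Txnl4a was lower in cKO (DESeq2 log2 fold change −0.34, adjusted p = 0.00275) and the others were higher. Over all genes DESeq2 passed 8.42%. The difference between these lists was not tested.

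The second question was whether the transcripts of these factors were spliced differently. Inclusion levels were computed from the deposited inclusion and skipping reads, and an event was called at an FDR (the Benjamini-Hochberg adjusted p) under 0.01 with a change of inclusion of at least 10 percentage points. The files give the 3 values of a condition without library names, so that values cannot be tied to CTRL_5.6 or KO_7.8. Which values are Control was matched for skipped exons and mutually exclusive exons, and the same order was assumed for alternative splice sites and retained introns, whose directions rest on it. Of 234 events tested in 38 of the 41 members, 1 was called. It was 1 of 155 skipped exons, where 0.495% of all tested skipped exons were called. None of the members' 32 mutually exclusive pairs, 19 alternative 3′ splice sites, 12 alternative 5′ splice sites and 16 retained introns was called, where the shares over all tested events were 0.25%, 0.584%, 1.08% and 0.181%. An FDR under 0.05 was reached by 5 member events, all skipped exons, where 1.79% of tested skipped exons reached it. At an unadjusted p under 0.05 there were 21 of the 234 events, against 9.49% of all tested events. Sf3b5, Snrpd2 and Snrpg had no tested event. The median absolute change was 0.255 points in the members and 0.713 points over all tested events. In skipped exons it was 0.145 against 0.559 points, but in retained introns the members had the larger median, 0.836 against 0.355 points. In the remaining classes the median of the members was the smaller. These differences were not tested.

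The called event was a 99-base exon of Lsm6 (chr8:78819987-78820085, minus strand) that lies in the 5′ UTR of 1 annotated coding transcript and is absent from another, so that the coding sequence is not touched by it. Its inclusion was 78.7, 79.7 and 82.2% in Control and 69.4, 71.0 and 70.2% in cKO, with a mean of 982 reads per library. All cKO values were below all Control values, by 10.01 points on average (FDR = 0.000888). The change lay just past the 10 points of the call rule, and leaving out 1 value at a time gave changes between −9.03 and −10.8 points. The call was lost without the third Control value and without the first cKO value, and with limma on the logit of inclusion no event of any gene was called (FDR of the Lsm6 exon = 0.781). The level of Lsm6 itself did not pass the test (log2 fold change 0.24 ± 0.13, adjusted p = 0.425).

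The lowest FDR belonged to the 51-base coding exon of Puf60, which keeps the reading frame. Its inclusion was 27.1, 26.8 and 27.0% in Control and 36.4, 35.0 and 37.3% in cKO, a rise of 9.24 points (FDR = 6.36e-11) from a mean of 3349 reads per library. The 3 Control values had an SD of 0.145 points, and the rise was just short of the 10 points of the call rule. With limma on the logit of inclusion the FDR was 0.816. The other exons of Puf60 that reached an FDR under 0.05 also rose. A 120-base exon (chr15:76079370-76079489, minus strand) of a transcript of the nonsense-mediated decay class went from 2.20, 0.754 and 2.52% to 3.47, 4.21 and 5.53% (FDR = 0.00134, and 0.661 with limma on the logit). A 191-base exon went from 98.5, 98.6 and 98.4% to 99.5, 99.4 and 99.3%, a gain of 0.921 points (FDR = 0.0146). Puf60 was thus the member with the most such exons, 3 of the 5.

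The 56-base exon of Sf3b1 with its stop codon fell. Its inclusion was 10.01, 9.01 and 7.04% in Control and 5.38, 7.22 and 5.03% in cKO, a change of −2.81 points (FDR = 0.00112). One cKO value was above the lowest Control value, so that the groups overlapped. The FDR rose to 0.0737 without the first Control value and to 0.0534 without the third cKO value, and it was 0.823 with limma on the logit. Transcripts with a premature stop are commonly degraded, so the share seen in RNA need not be the share that was spliced in this way.

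**Figure D4:**
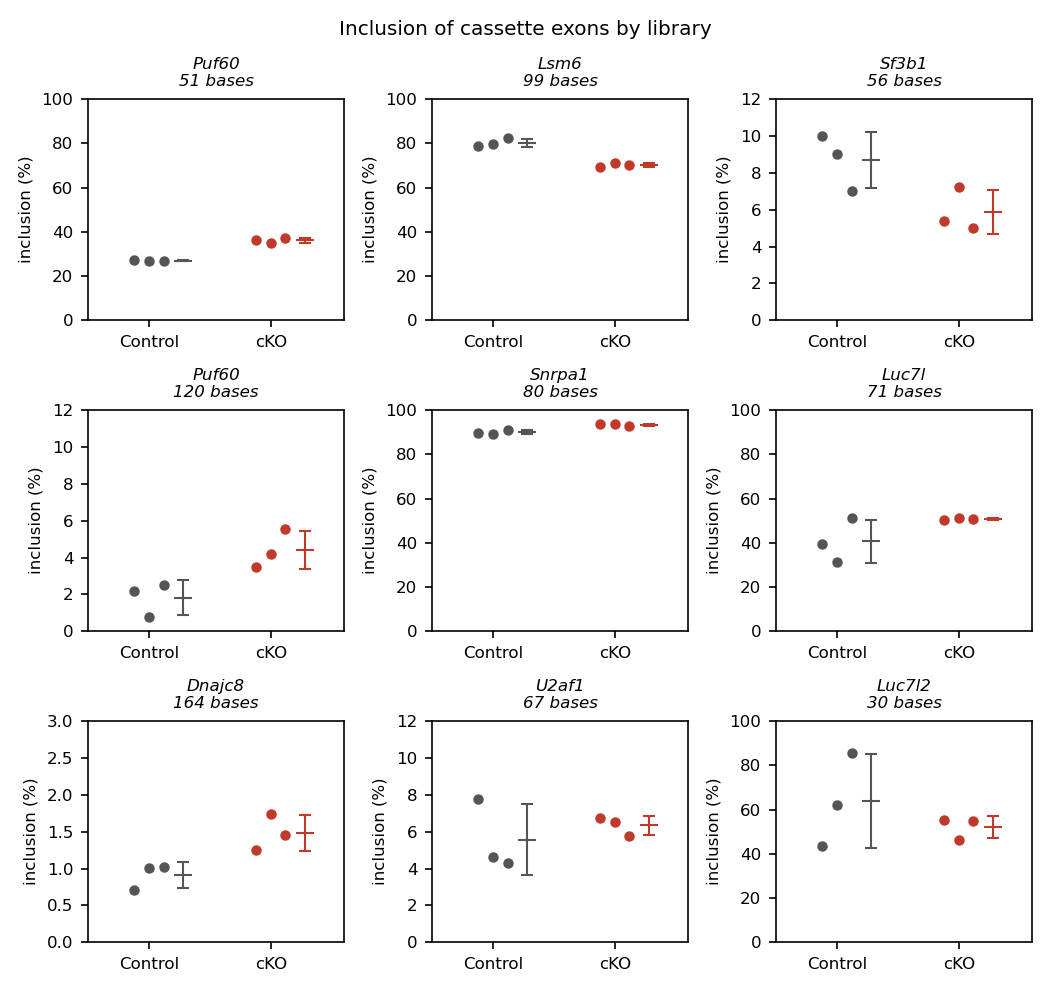
Inclusion (%) of 9 cassette exons named in the text in each library of Control (grey) and cKO (red); points are libraries in file order and bars are mean ± SD (n = 3), with axes to 100%, 12% or 3% as labelled. The Puf60 and Lsm6 exons separate the conditions without overlap, Sf3b1 overlaps by 1 value, and the Control values of Luc7l and Luc7l2 are spread widely.

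Other exons moved by less or were measured with more spread, and none of them passed the call rule. The 80-base coding exon of Snrpa1 was included at 89.4, 89.2 and 90.9% in Control and at 93.8, 93.4 and 92.7% in cKO (FDR = 0.0614). A retained stretch of 1063 bases in the same place, which holds that exon and the introns beside it, was at 7.65, 5.19 and 6.93% in Control and at 11.09, 16.3 and 12.3% in cKO (FDR = 0.0808). Both are measured against the same skipping junction and are not separate observations. In each of them all cKO values were above all Control values.

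Luc7l, the U1-associated gene with most events of small p, had the 71-base exon at 39.5, 31.4 and 51.03% in Control and at 50.1, 51.2 and 50.7% in cKO. The cKO values lay close together and inside or just above the widely spread Control values, and the FDR was 0.164. A longer form of 1152 bases from the same start, counted against the 99-base exon that follows, went from 8.13, 4.86 and 6.35% to 10.2, 11.5 and 8.73% (FDR = 0.0706). This form and the 99-base exon occur together in an annotated transcript of the retained intron class. The 986-base intron inside the form was retained at 7.04, 4.99 and 5.69% in Control and at 5.78, 10.5 and 5.79% in cKO (FDR = 0.844). An alternative 5′ splice site of Luc7l was at 0% in all Control values and at up to 0.367% in cKO (FDR = 0.161), from at most 5 reads, which is too few to show a difference. For the pair of 99-base and 111-base exons of Luc7l, which occur together in annotated transcripts, the FDR was 0.555.

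The stop-carrying exon of Dnajc8 was rare, with 0.713, 1.01 and 1.02% in Control and 1.26, 1.74 and 1.46% in cKO (FDR = 0.186). All cKO values were above all Control values. The U2af1 exon of 67 bases was at 7.79, 4.61 and 4.30% in Control and at 6.76, 6.51 and 5.78% in cKO (FDR = 0.692), the cKO values lying inside the Control range. A 30-base exon of Luc7l2 was at 43.6, 61.9 and 85.7% in Control and at 55.0, 46.4 and 54.9% in cKO (FDR = 0.692), from a mean of only 85.3 reads per library.

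Among the Sm and LSm genes, most named exons were nearly always included. The 96-base exon of Lsm3 was included at 99.7, 99.3 and 99.9% in Control and at 98.7, 97.9 and 98.4% in cKO (FDR = 0.112), and the 79-base exon of Snrpe at 99.1, 99.1 and 99.6% and at 98.4, 98.6 and 98.3% (FDR = 0.247). In both the cKO values were slightly lower without overlap. The longer of the 2 alternative 5′ splice sites of an Lsm5 exon (96 against 92 bases) took 95.2, 94.7 and 95.8% in Control and 96.4, 97.6 and 98.4% in cKO (FDR = 0.0995). The 68-base exon of Lsm2 was at 93.8, 91.0 and 92.4% in Control and at 96.0, 95.6 and 95.3% in cKO (FDR = 0.413). Again the groups were apart, but by few reads of the rarer form, 24.0 per library on average.

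None of the remaining events in genes with known alternative forms passed the test. A 307-base intron of Snrpb was retained at 1.05, 1.12 and 0.926% in Control and at 1.04, 1.15 and 0.947% in cKO (FDR = 0.994). The alternative 3′ splice site of Lsm7, 3 bases apart, was at 11.8, 10.97 and 12.9% in Control and at 9.57, 10.7 and 9.98% in cKO (FDR = 0.8). A long alternative 5′ splice site form of Prpf39 was at 27.6, 20.4 and 23.7% in Control and at 26.0, 30.7 and 24.0% in cKO (FDR = 0.637). The events of Lsm4, Lsm5, Lsm8, Luc7l3 and Snrnp70 with most reads of the rarer form had FDRs of 0.473 to 0.996, with mean changes between −0.687 and 1.02 points. Those of Lsm4, Lsm5 and Luc7l3 were pairs of exons that occur together in annotated coding transcripts. Their rarer form thus need not be an alternative one. Changes of at least 10 points were seen in 9 distinct events, and apart from Lsm6 none of them reached an FDR of 0.05; the lowest of those was 0.164 (Luc7l).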

How the data were processed

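RNA-seq of 6 libraries was used, made per the study's methods with a low-input kit from 3 mice per condition, and p-values rest on the spread among those 6. The submitters' notes name cutadapt, STAR, DESeq2 and GRCm38; the methods name featureCounts and rMATS. The authors deposited a signal per gene, reads scaled by DESeq2 size factors, and 100% of values came back as whole reads within 0.01. The deposited rMATS counts support inclusion or skipping; for skipped and mutually exclusive exons their condition was matched through mean reads per event to the study's own lists, the same order was assumed for the other classes, and no library is named. Strand use is not stated, so antisense and near-identical genes may share reads. The authors' fold changes and p-values were not used. Genes with symbols were kept from a mean of 100 in 1 condition upwards (11001), and limma 3.58.1 (R 4.3.3, variance trend) was run on log2(value + 1), which understates changes of low genes. On whole reads, edgeR 4.0.16 passed 112 and DESeq2 1.42.0 passed 926 genes at an adjusted p under 0.05. Splicing events needed 20 reads in each condition and were fitted by quasi-binomial regression with limma-moderated dispersions (floor 1, prior from events whose rarer form had 5 reads or more), adjusted within class. Tests were checked on simulated data. Genes and events were named when past the threshold, of smallest p (2 per role, 12 further events), of largest change or extreme level, or, in genes with known alternative exons, richest in reads of the rarer form; other names were chosen after values were seen. Members and lists were chosen with earlier results of these data known. The sequence of 1 exon is not reported here.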

Additional observations from a re-analysis of the deposited data

How the results depend on the processing

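No paired analysis was possible because the labels give no numbers that Control and cKO share. No member was called in any of the alternatives run, and the median change of the members stayed above 0, between 0.0666 and 0.189 without 1 library. Members with an adjusted p under 0.05 numbered 3 with DESeq2 and 5 without CTRL_5.6 and KO_7.8, an alternative chosen after seeing the data, and 0 without any single library. Over all genes this count was 107, against 926 with DESeq2, 1460 without both libraries and 26 to 130 without 1. Of 288 refits of named genes, 274 kept direction and side of the threshold, 8 newly passed it and 6 turned. Snrpf turned with quantile normalization (−0.028), and without 1 library it ranged from −0.078 to 0.18, Snrpa from −0.00495 to 0.22, Luc7l3 from −0.21 to 0.051 and Lsm8 from −0.00422 to 0.14. With limma on the logit 0 member events were called, and 0 events of all genes, so that Puf60 (9.24 and 2.58 points), Lsm6 (−10.01) and Sf3b1 (−2.81) passed no threshold there, with FDRs of 0.661 to 0.823. The cause was not tested. With the dispersion prior taken over all tested events, 445 events of all genes were called against 260, and 1 member event as before. Without 1 value, 0 to 1 events were called, and the change was −10.8 to −9.03 in Lsm6, −3.63 to −2.14 in Sf3b1 and 2.02 to 3.05 in the 120-base exon of Puf60. The 51-base exon of Puf60 kept its FDR below the threshold there. Of 275 refits of named events 254 kept direction and side. Without 1 value, the events of Snrnp70 ranged from −0.376 to 0.222, Lsm5 from −0.378 to 1.95, Lsm8 from −0.0683 to 0.117, Snrpb from −0.0345 to 0.0688 and Luc7l3 from −4.89 to 2.28 points.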

Other observations

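The members that were higher in CTRL_5.6 and KO_7.8 together and those that were lower in both differed in the properties of their transcripts, a description made after the values were seen and without a test. The 26 members that were higher had a median longest coding transcript of 1170.5 bases and a median G and C content of 47.0%. The 8 members that were lower had a median of 2963 bases and 56.3%. The ranges overlapped, from 494 to 6195 bases and from 36.6 to 59.4% in the first and from 1735 to 5244 bases and from 41.6 to 62.2% in the second. Whether transcript length, base composition, other cells or, in CTRL_5.6, the genotype account for the difference was not tested.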
